A study of Ovis aries with 26 samples.

Results

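T cells of the developing sheep pancreas were taken as the kept cells with at least 1 unique molecular identifier (UMI, 1 counted RNA molecule) of *CD3E* and none of *CD79B*, *C1QA*, *C1QB*, *C1QC* or *PECAM1*, genes of B cells, macrophages and endothelium. The rule found 1264 of 79510 kept cells (here a cell is a barcode that passed the filters). The members were thus chosen by their measured *CD3E* and by those 5 other genes, so these levels describe the choice and are not results. They are called CD3E+ cells below, because the other T cell genes did not mark all of them. The libraries were 10x Genomics 3′ single-cell RNA-seq of whole pancreas, 26 libraries from 23 animals. The control arm held 4 fetuses at 80 days of gestation (WT donors 1 and 3, HZ donors 2 and 4), 3 WT fetuses at 120 days and 4 WT lambs at term. The CF arm (CFTR-/-) held 3 fetuses at 80 days, 6 fetuses at 120 days and 3 lambs at term. All control animals were naturally bred. The CF animals at 80 days, 4 of 6 at 120 days and 1 of 3 at term were cloned males, made by nuclear transfer from a single fibroblast line edited in exon 2 of *CFTR*, and the other CF animals were naturally bred females. Cloning and genotype therefore cannot be told apart at 80 days, when all animals were male. Within the CF arm, age cannot be fully told apart from breeding and sex, since only 1 of 3 lambs was a cloned male. As in the study, the HZ fetuses, heterozygous for a *CFTR* mutation, were counted as controls. Control replicates 2, 3 and 4 at 80 days were triplets, treated here as separate animals. The paired libraries of 3 CF animals were averaged so that the animal is the replicate.

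T cells recognise antigen through a receptor that is held at the surface by the CD3 chains, which pass the signal to the kinase LCK and to adaptors such as LAT. Helper T cells carry CD4 and cytotoxic T cells carry CD8, while many of the T cells of young ruminants bear the gamma delta receptor and neither of these. T cells are made in the thymus, and circulate between blood and lymph nodes under the control of receptors such as CCR7. CD69 is a surface protein that appears early after activation and holds T cells in tissues. The gene lists below follow these roles.

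The libraries held 7841217 to 171256169 UMIs and 943 to 9543 kept cells. *CFTR* was found in every group, at medians of 9.24 to 21.7 CPM (UMIs of the gene per 1000000 UMIs) in the control groups and 24.8 to 94.4 in the CF groups, but 3′ tags outside the edited exon do not check the genotype. The share of CD3E+ cells set 1 library apart, that of the control lamb replicate 2 at term, which alone gave 462 of the 1264 CD3E+ cells. Main results are also given without this lamb where they move with it. No barcode sequence was a CD3E+ cell in more than 1 library, and the sequences of 21 CD3E+ cells were also kept in another library. CD3E+ cells were shallow, with a median of 5648.5 UMIs against 12245 in the other kept cells, and over all CD3E+ cells of an age the median was 11096 UMIs at 80 days, 6112 at 120 days and 3709 at term. By animal the medians overlapped, at 6679 to 16271 UMIs at 80 days, 4564 to 33996 at 120 days and 2956 to 9713 at term, where the control lamb replicate 2 had 3494.

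The label was checked with a panel of 17 other T cell genes, 3 of the receptor complex, 8 of signalling and 6 of the surface. Of the CD3E+ cells, 82.8% had a UMI of at least 1 panel gene, 70.3% of at least 2 and 58.1% (734 cells) of at least 3. The same 3 shares were 51.8%, 17.7% and 4.47% in 604 cells with *CD79B* and no *CD3E*. They were 17.8%, 2.03% and 0.405% in 2220 cells with a C1Q gene and neither *CD3E* nor *CD79B*, and 13.4%, 1.03% and 0.0576% in acinar-rich cells, the 20% of kept cells with the highest share of acinar transcripts, which have a median of 29136 UMIs. When every cell was thinned to 1000 UMIs the share with at least 1 panel gene was 58.2% in CD3E+ cells, 17.3% in *CD79B* cells, 3.25% in C1Q cells and 0.436% in acinar-rich cells. Most CD3E+ cells thus carried several T cell genes, and a minority did not.

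**Figure D1:**
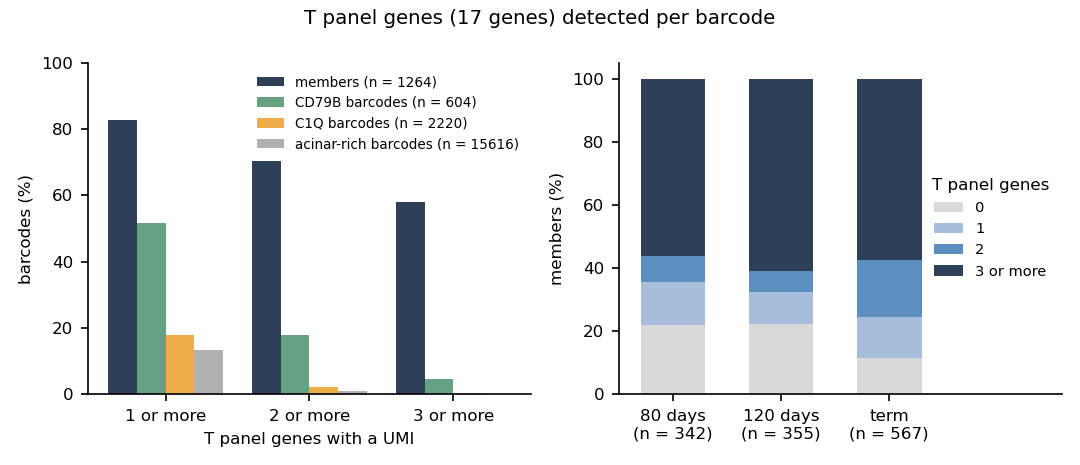
The left panel shows the percent of cells (vertical axis) with a UMI of at least 1, 2 or 3 of the 17 T panel genes in CD3E+ cells, called members in the plot, and in 3 other classes. The right panel splits the CD3E+ cells of each age by the number of panel genes, with 56.1%, 60.8% and 57.5% of them at 3 or more at 80 days, 120 days and term.

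The edge of the rule lies at a single molecule. Of the 1264 CD3E+ cells, 465 (36.8%) had exactly 1 *CD3E* UMI, 184 had 2 and 417 (33.0%) had 5 or more, up to 42. Of the 218 CD3E+ cells with no panel gene, 89.0% had only 1 *CD3E* UMI and 3.67% had *CD69*. Of those with 3 or more panel genes, 13.6% had only 1 *CD3E* UMI, the median was 5 and 49.2% had *CD69*. Just outside the rule, 128 of 1392 cells with *CD3E* were left out, 83 for *PECAM1*, 33 for *CD79B* and 20 for a C1Q gene, 47 of them on 1 UMI, and 46.9% of the cells left out had 3 or more panel genes.

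Transcripts of other pancreatic cells were present in a subset of the CD3E+ cells. Hormone and secretory granule genes (the endocrine list) made up at least 5% of the UMIs in 92 CD3E+ cells, of which 76 had a single *CD3E* UMI and 5 had 3 or more panel genes. They made up 39.5% of the CD3E+ cells (15 of 38) of CF replicate 3 at 80 days and 45.5% (5 of 11) of those of CF replicate 6 at 120 days. *SKAP1*, an adaptor of the T cell receptor pathway, had a UMI in 43.2% of 6329 endocrine-rich cells that were not CD3E+, and *CD3G* in 884, while *SH2D1A*, *CD2*, *CD5* and *ICOS* were found in at most 2 of them. *SKAP1* was the only panel gene in 80 CD3E+ cells. A further 18 CD3E+ cells were rich in stromal transcripts, and 164 had at least 5% acinar transcripts, 118 of these in the control lamb replicate 2. *CD3E* itself had a UMI in 0.258% of the acinar-rich cells, and in 3.54% of the endocrine-rich cells at 80 days against 2.54% of all kept cells of that age. After thinning to 1000 UMIs the latter shares were 0.248% and 1.15%. The part of these transcripts in the results below was not tested, so the main results are also given for the 734 cells with 3 or more panel genes. This set is not free of them. It holds 75 of the 164 cells with at least 5% acinar transcripts, 65 of these in the control lamb replicate 2.

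The receptor complex, summed over the CD3E+ cells of each of the 13 animals with at least 20 of them, stood clear of the rest of the pancreas. *CD3G*, the gamma chain, had 284 ± 175 CPM (SD, n = 13) in CD3E+ cells against a mean of 4.80 CPM in the other kept cells of the same animals. *CD3D*, the delta chain, had 69.7 ± 51.0 CPM against 0.377, and *CD247*, the zeta chain, 16.9 ± 11.3 CPM against 0.448. Each of the 3 was higher in CD3E+ cells in 13 of 13 animals. No symbol of the receptor constant regions on the list was matched in the files, and their levels were not analysed here.

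**Figure D2:**
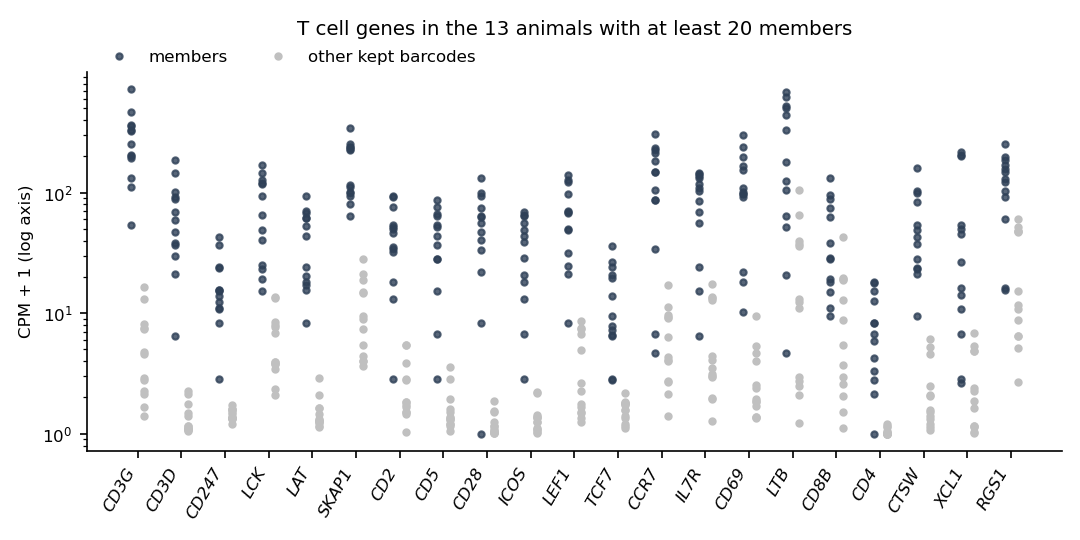
The plot gives the level of 21 T cell genes (CPM + 1, log axis) in the CD3E+ cells (dark points, called members) and in the other kept cells (grey points) of the 13 animals. *CD3G* in CD3E+ cells ran from 53.3 to 718 CPM and lay above the other cells of the same animal in 13 of 13 animals.

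All 8 signalling genes and all 6 surface genes also had a higher mean level in CD3E+ cells. So had all 11 endocrine genes, whose sum had a median of 22206 CPM against 13284 in other cells. A higher mean alone therefore does not mark T cells. The kinase *LCK* had 76.7 ± 53.8 CPM (SD, n = 13) in CD3E+ cells against 5.24 in other cells, the adaptor *LAT* 41.6 ± 27.0 against 0.515, *SH2D1A*, which couples SLAM receptors, 45.7 ± 30.6 against 0.409, and *SKAP1* 168 ± 88.9 against 10.2. All 4 were higher in 13 of 13 animals. On the surface, the costimulatory receptor *CD28* had 55.4 ± 37.6 CPM against 0.214 and was higher in 12 of 13 animals, its relative *ICOS* 35.5 ± 23.01 against 0.370, and *CD5*, which damps receptor signals, 42.0 ± 26.3 against 0.647. The animal with the lowest values of *CD3D* (5.51 CPM) and *CD3G* (53.3 CPM) was CF replicate 3 at 80 days, where 5 of 38 CD3E+ cells had 3 or more panel genes.

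Among lineage factors, *LEF1* (66.4 ± 42.9 CPM, SD, n = 13, against 2.78 in other cells) and *TCF7* (13.1 ± 10.2 against 0.577), the factors of naive T cells, were higher in CD3E+ cells of 13 of 13 animals. *GATA3*, needed for T cell commitment, had 13.4 ± 7.17 CPM against 0.322 and was higher in 12 of 13. *SATB1*, *ETS1* and *TOX* were also made elsewhere in the pancreas, with 20.0, 68.7 and 16.3 CPM in other cells. *BCL11B* was near the limit of detection, with a UMI in 27 CD3E+ cells.

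The coreceptors were detected in few cells. *CD4* without *CD8A* or *CD8B* was found in 48 CD3E+ cells (3.80%), a CD8 gene without *CD4* in 156 (12.3%) and both in 8. Among the cells with 3 or more panel genes these shares were 6.13%, 17.2% and 0.954%. *CD8B*, with 46.8 ± 39.2 CPM (SD, n = 13), was the coreceptor gene with the highest mean, and it also had 9.91 CPM in other kept cells. At a median of 5648.5 UMIs a cell without a coreceptor UMI cannot be called double negative. *CD40LG*, the ligand by which helper cells act on B cells, was found in 88 cells.

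All 8 genes of naive and recirculating cells had a higher mean level in CD3E+ cells than in other cells. The lymph node homing receptor *CCR7* had 136 ± 94.1 CPM (SD, n = 13) against 5.47 in other cells, and the IL-7 receptor *IL7R* had 87.1 ± 49.7 against 5.43, both higher in 13 of 13 animals. *CCR7* had a UMI in 39.4% of CD3E+ cells and *IL7R* in 35.0%. *CCR9* and *ITGB7*, whose products guide T cells to the gut, were found in 11.3% and 18.2%. *BACH2*, a repressor that holds T cells in a resting state, was found in 47.2% of CD3E+ cells, at 119 ± 63.5 CPM against 18.3.

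*CD69* was the marker given beside *CD3E* for these cells. It had a UMI in 427 CD3E+ cells (33.8%) and 122 ± 86.0 CPM (SD, n = 13) against 2.06 in other cells, higher in 13 of 13 animals. At 80 days its level in CD3E+ cells was 20.8, 153 and 198 CPM in controls and 109, 100 and 9.19 CPM in CF fetuses. At 120 days it was 236 and 297 CPM in controls and 95.6 and 164 in CF fetuses, and at term 96.8 and 17.1 in controls and 90.4 in the CF lamb. The arms overlapped at 80 days, both CF fetuses lay below both controls at 120 days, and the lowest value was again that of CF replicate 3 at 80 days. *RGS1*, which curbs chemokine signals, had 126 ± 69.9 CPM, and the integrin *ITGAE*, which binds epithelium, 43.8 ± 16.9 CPM against 13.96 in other cells. The inhibitory receptor gene *PDCD1* was found in 2 cells and *LAG3* in 21.

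Effector genes were thin. *GZMK* was found in 2 CD3E+ cells, *PRF1*, perforin, in 29, *NKG7* in 53, and the NK receptor genes *KLRB1* and *NCR1* in 0 of 1264 cells. No limit on their share is drawn from this, because cells of 1 animal are not independent and 1 lamb gave 462 of them. *XCL1*, a chemokine that attracts dendritic cells, was found in 71 cells and *CCL5* in 34 cells, at 64.5 ± 82.9 and 52.9 ± 81.2 CPM (SD, n = 13), so that the spread between animals was larger than the mean. *CTSW*, a protease of cytotoxic cells, was found in 146 cells, at 55.5 ± 43.3 CPM (SD, n = 13) against 1.45 in other cells. Of the cytokines, *LTB*, lymphotoxin beta, was found in 483 cells and *TNF* in 134, whereas *IFNG* was found in 9, *IL17F* in 19, *IL17A* in 1 and *IL2* in 7. *IL5*, *IL13* and *IL21* had no UMI. Regulatory T cell genes were detected in small numbers, *FOXP3* in 30 cells, *CTLA4* in 71, and the IL-2 receptor chain *IL2RA* in 108. *RAG1*, *RAG2* and *DNTT*, which rearrange receptor genes in the thymus, had no UMI in any CD3E+ cell. *PTCRA*, the chain of the receptor of immature thymocytes, was found in 9.

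How many CD3E+ cells the pancreas held was compared between ages and genotypes by animal, as a percent of kept cells. At 80 days the shares were 2.30, 1.03, 3.90 and 2.07% in controls, a mean of 2.33% ± 1.19 (SD, n = 4). They were 2.82, 1.95 and 1.19% in CF fetuses, a mean of 1.99% ± 0.816 (SD, n = 3). The arms overlapped at this age. At 120 days the controls had 0.725, 3.85 and 1.85% (mean 2.14% ± 1.58, SD, n = 3). The 6 CF fetuses ran from 0.149% over a median of 0.405% to 1.56% (mean 0.677% ± 0.578, SD), so the highest CF fetuses lay above the lowest control. At term the controls had 0.370, 4.84, 0.801 and 0.233% (mean 1.56% ± 2.20, SD, n = 4) and the CF lambs 0.513, 0.141 and 0.364% (mean 0.339% ± 0.187, SD, n = 3). The share of 4.84% has a 95% Wilson interval of 4.43 to 5.29%, and that of 0.141% one of 0.0603 to 0.330%, for counting error only. Acinar-rich cells, which should lack *CD3E*, had a *CD3E* UMI in 0.553% at 80 days, 0.221% at 120 days and 0.147% at term, at median depths of 24383 to 34428 UMIs. The lowest CF fetus at 120 days and the lowest CF lamb at term lay at or below these values, although 1 of 3 and 2 of 5 of their CD3E+ cells had 3 or more panel genes, and their shares are not read as different from background.

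**Figure D3:**
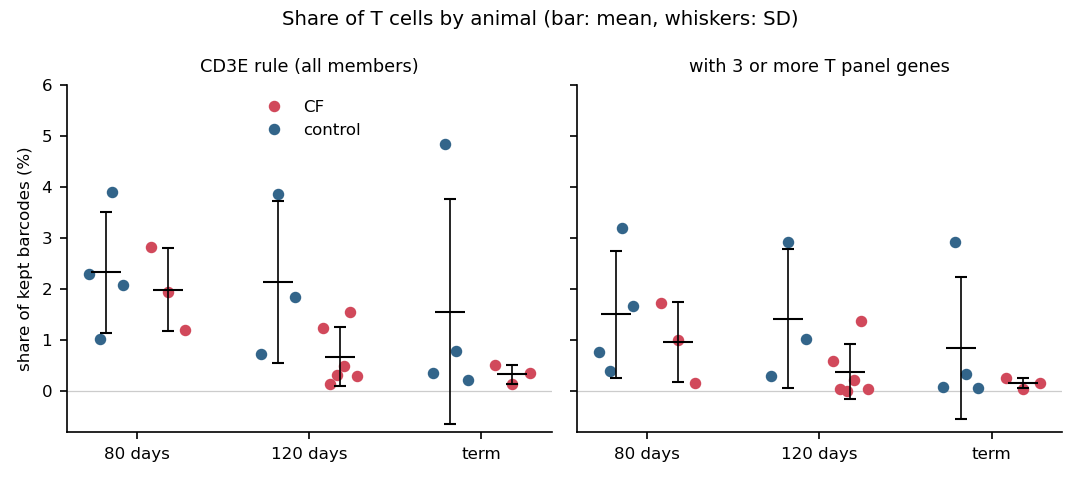
Each point is the share of CD3E+ cells among the kept cells of 1 animal (percent, vertical axis) by age, with the mean as a bar and the SD as whiskers, for all CD3E+ cells (left) and for those with 3 or more panel genes (right). The control lamb at 4.84% stands above the 6 other animals at term, which lie between 0.141 and 0.801%.

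No difference in share passed the test. Over the 3 ages the CF share was lower than the control share by a mean difference of -1.01 percentage points (exact permutation test with arms permuted within age, two-sided p = 0.0599, adjusted p = 0.226 over 11 comparisons). By age the difference was -0.337 at 80 days (exact p = 0.743), -1.47 at 120 days (exact p = 0.0952) and -1.22 at term (exact p = 0.343), where the smallest possible p is 0.0571, 0.0238 and 0.0571. The difference at 120 days was -2.17 without control replicate 1 and -0.610 without control replicate 2, and that at term was -0.128 without the control lamb replicate 2 and ran to -1.66 without another animal. Term minus 80 days over both arms was -1.21 (exact p = 0.103, adjusted p = 0.226). Within the CF arm it was -1.65, with each of the 3 lambs below each of the 3 fetuses, the smallest exact p of 0.1 that 3 against 3 allows. Breeding and sex changed with age in this arm and cannot be fully told apart from it. Without the control lamb replicate 2, term minus 80 days over both arms was -1.76 (exact p = 0.00286, adjusted p = 0.0314), past the threshold. The CF minus control difference over the ages was then -0.644 (exact p = 0.102). This lamb was set apart by its high share, the value tested here. Leaving it out lowers the term mean by choice, so nothing is concluded from these p-values. With the cells of 3 or more panel genes, term minus 80 days over both arms was -0.732 (exact p = 0.163) and CF minus control over the ages -0.757 (exact p = 0.0820). Without the HZ fetuses CF minus control over the ages was -1.27 (exact p = 0.0196, adjusted p = 0.216), which did not pass.

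Gene expression within the CD3E+ cells was compared on UMIs summed per animal, in the 13 animals with at least 20 CD3E+ cells (1171 cells, 348363 to 3058943 UMIs per animal), by the quasi-likelihood test of edgeR over 9098 genes. Term had 2 control lambs and 1 CF lamb in this fit, whose spread is assumed to be like that of the other groups. Each comparison of ages is the mean of the 2 arms, so this CF lamb alone stands for the CF arm at term. No alternative leaves it out of the comparisons with term, because such a fit gives no value there. This CF lamb was a naturally bred female and the CF fetuses at 80 days were cloned males. Their age therefore cannot be told apart from breeding and sex. Between 80 days and term 85 genes passed an adjusted p of 0.05 (0.934% of those tested), 60 higher at term (0.659%) and 25 lower (0.275%). With at least 2 *CD3E* UMIs required, 5 genes passed. In a fit blocked by donor number 2 passed, and without control replicate 3 at 80 days 23. With 3 or more panel genes required, 66 genes passed, 31 of them shared with the 85. Without the control lamb replicate 2, 86 passed, 44 of them shared. Between 80 and 120 days 8 genes rose (0.0879% of those tested) and none fell. They were *C12H1orf186* and 7 genes that include digestive enzymes of acinar cells, *SERPINA1*, *PNLIPRP2*, *KLK1*, *PDIA2*, *CPB1*, *SYCN* and *AGT*. With 3 or more panel genes 20 passed, 3 higher and 17 lower at 120 days, 2 of them shared with the 8, and without the control lamb replicate 2 there were 19, the 8 among them. Between 120 days and term 0 genes passed, with 1002 at an unadjusted p under 0.05 and 28 called by DESeq2. No gene of the receptor complex (0 of 3), T signalling (0 of 8) or T surface list (0 of 6) passed in any comparison of ages.

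The rule for named genes picked genes between 80 days and term whose mean at term was at least 2 times higher in CD3E+ cells than in other cells. Of these *C12H1orf186*, a gene named by its position, had the largest log2 fold change. It had 0 UMIs among 4270249 in the CD3E+ cells of the 6 animals at 80 days. At 120 days its level was 11.6 and 32.6 CPM in controls and 23.6 and 94.7 CPM in CF fetuses, and at term 19.6 and 94.1 CPM in controls and 34.4 CPM in the CF lamb. Every later animal in the fit thus lay above every animal at 80 days, but a lack of overlap in at least 1 arm was a condition of the rule. Against a floor of 3 counts over the pooled 80-day CD3E+ cells (0.703 CPM), the mean was 57.8-fold higher at 120 days and 70.3-fold higher at term. The lowest animal was 16.5-fold above this floor at 120 days and 27.9-fold at term. These folds hold no allowance for the spread between animals and were not tested. The difference from 80 days passed at 120 days (edgeR, adjusted p = 0.0442) and at term (edgeR, adjusted p = 0.0162). The UMIs came from 29 of 355 CD3E+ cells at 120 days and 45 of 567 at term, both with and without 3 panel genes. The other kept cells of all 23 animals held 94 UMIs of the gene among 1436599946. The call at term held in 20 of 22 alternatives, with adjusted p of at most 0.0587, and that at 120 days in 9 of 25.

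*BLK*, a kinase of the SRC family on the gamma delta list and also made by B cells, rose by a log2 fold change of 4.84 ± 0.987 (SE) from 80 days to term (edgeR, adjusted p = 0.0464). At 80 days 4 of 6 animals had no *BLK* UMI in CD3E+ cells and the others had 1.42 and 1.04 CPM, against 12.1 and 17.1 CPM in the control lambs and 12.7 in the CF lamb. It was found in 2 of 342 CD3E+ cells at 80 days, 14 of 355 at 120 days and 33 of 567 at term. Its adjusted p was 0.0432 with 3 or more panel genes and 0.0892 without the control lamb replicate 2, and the call held in 6 of 21 alternatives, with adjusted p of at most 0.225. The other tested genes of that list, *ZBTB16* and *ID3*, did not pass, and 4 of its 15 symbols were in the files.

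*RUNX3*, a factor of CD8 and innate-like lymphocytes, had a log2 fold change of 2.77 ± 0.748 (SE) from 80 days to term, which did not pass (edgeR, adjusted p = 0.108). It was 42.5 CPM in the control lamb replicate 2 and 56.0 in the CF lamb, but 5.70 in the control lamb replicate 3, within the range of 0 to 23.7 at 80 days. With 3 or more panel genes it passed (log2 2.21, adjusted p = 0.0357), and without the control lamb replicate 2 it did not (log2 1.40, adjusted p = 0.585). The chemokine receptor *CXCR4* (log2 1.88 ± 0.700, SE, adjusted p = 0.230) was likewise high in the control lamb replicate 2 (287 CPM) and low in replicate 3 (31.4 CPM), and without replicate 2 its log2 fold change was 0.44 (edgeR, adjusted p = 0.813).

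Several T cell genes had lower values at term without passing the test. *CD8B* was 73.2, 93.6 and 87.8 CPM in the controls and 62.2, 27.3 and 27.6 CPM in the CF fetuses at 80 days, against 14.1 and 8.56 CPM in the control lambs and 18.1 CPM in the CF lamb. No lamb reached the lowest fetus at 80 days, yet the difference (log2 -1.47 ± 0.598, SE) did not pass (edgeR, adjusted p = 0.272). In the cells with 3 or more panel genes the sum of *CD8A* and *CD8B* reached 102 CPM in a control lamb, above the lowest fetus at 80 days (78.4 CPM). *LCK* (log2 -1.84 ± 0.764, SE, adjusted p = 0.282), *LTB* (-2.97 ± 1.26, SE, adjusted p = 0.293) and *KLF2*, a factor of recirculating cells (-1.85 ± 0.627, SE, adjusted p = 0.192), also did not pass. The median log2 fold change of the tested genes was -0.49 for the receptor complex, -0.75 for T signalling, 0.15 for T surface, 0.19 for T lineage, -1.44 for the 2 CD8 genes and 0.36 for the naive and recirculating list, against -0.08 for all genes tested. No gene passed among these or among the tested genes for CD4 helper (0 of 4, median -0.47), regulatory (0 of 5, -0.04), cytotoxic (0 of 8, median 0.00), activation (0 of 11, 0.18), cytokines (0 of 5, -0.68), chemokine receptors (0 of 3, 1.31) and thymocytes (0 of 3, -3.43). These medians moved with the cells and animals used. Without the control lamb replicate 2 they were -0.87 for the receptor complex, -2.01 for T signalling, -1.76 for T surface, -0.89 for T lineage, -2.73 for CD8 and -0.83 for the naive and recirculating list, against -0.15 for all genes tested, so that T surface, T lineage and the naive list changed sign. With 3 or more panel genes T surface (-0.02), T lineage (-0.13) and the naive list (-0.26) were also below 0, against -0.11 for all genes tested, and the thymocyte list was at 0.15. The T surface genes are part of the panel, so this choice of cells sets their level in part. From 80 to 120 days the medians were 0.93 for the receptor complex, 0.50 for T signalling and 0.70 for T surface, with all 17 genes above 0 and none past the test, against -0.05 for all genes tested. Of all 9098 genes tested 4235 were above 0 in this comparison.

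**Figure D4:**
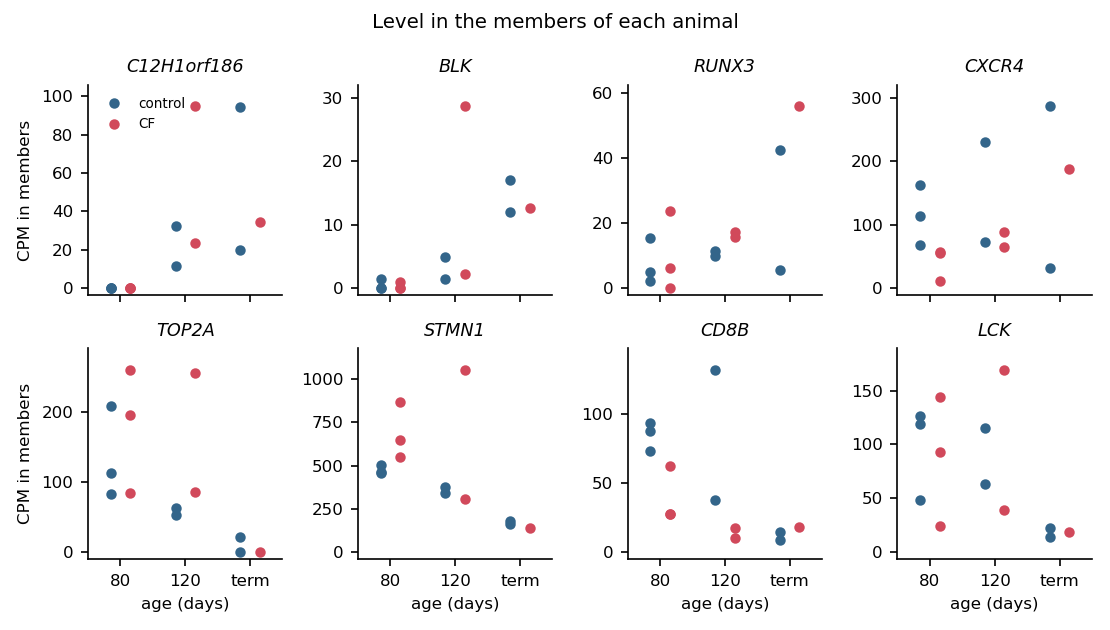
The plots show the level (CPM) of 8 genes in the CD3E+ cells of each of the 13 animals by age, controls in blue and CF in red. *C12H1orf186* lies at 0 in the 6 animals at 80 days and above 11 CPM in the 7 older ones, and *TOP2A* lies at 20.9 CPM or less in the 3 lambs.

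Of 15 tested genes of cell division 1 passed between 80 days and term. *TOP2A*, the topoisomerase of dividing cells, was 208, 112 and 82.7 CPM in controls and 195, 83.8 and 259 CPM in CF fetuses at 80 days, against 20.9, 0 and 0 CPM in the 3 lambs, and fell from 80 days to term (edgeR, log2 -6.13 ± 1.25, SE, adjusted p = 0.0464). All 15 had a log2 fold change below 0, as had 5027 of all 9098 genes tested, with a median of -3.22 against -0.08 for all genes tested. *MKI67* (-4.56 ± 1.08, SE, adjusted p = 0.0747), *CENPF* (-3.78 ± 0.877, SE, adjusted p = 0.0706) and *STMN1* (-1.41 ± 0.410, SE, adjusted p = 0.133) did not pass. In the cells with 3 or more panel genes 11 of the genes could be tested, none passed, the median was -2.90 and *TOP2A* had an adjusted p of 0.169. Without the control lamb replicate 2, 4 of 15 passed, *TOP2A* (edgeR, adjusted p = 0.0120) and *MKI67* (edgeR, adjusted p = 0.0453) among them, with a median of -5.33, and DESeq2 called 5. The call of *TOP2A* held in 9 of 22 alternatives (adjusted p of at most 0.450). *STMN1*, which is also made by non-dividing cells, ran from 458 to 866 CPM at 80 days and from 136 to 176 CPM at term, with no overlap. The other kept cells moved the same way: *CENPF* ran there from 63.9 to 208 CPM at 80 days and from 8.13 to 16.5 CPM at term.

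By cell, at least 2 of the 16 division genes had a UMI in 69.8 to 81.4% of the CD3E+ cells of the control fetuses and 65.4 to 84.2% of those of the CF fetuses at 80 days, against 40.9 and 46.2% in the control lambs and 37.5% in the CF lamb. The difference of -33.6 percentage points has the smallest p that the design allows (exact permutation test with ages permuted within arm, two-sided p = 0.05, adjusted p = 0.2 over 8 tests). The share with a CD8 gene and no *CD4* differed by -15.4 points (exact p = 0.05, adjusted p = 0.2), from 13.2 to 33.3% at 80 days against 8.01, 3.85 and 4.17% at term. After thinning to 1000 UMIs, which evens out the depth between ages, the differences were -9.52 points for division genes and -4.79 points for CD8. *CD69* differed by -8.52 points (exact p = 0.55) and by -0.0172 after thinning, and *CD4* without CD8 by -4.52 points (exact p = 0.2). In the cells with 3 or more panel genes the differences were -31.7 points for division genes (exact p = 0.3), -24.9 for CD8 (exact p = 0.05, adjusted p = 0.356), -18.9 for *CD69* (exact p = 0.15) and -4.61 for *CD4* (exact p = 0.5). CF replicate 3 at 80 days had 5 such cells, none of them with 2 division genes. Leaving out 1 animal at a time gave -35.3 to -30.5 points for division genes, -17.1 to -12.0 for CD8, -16.5 to -4.11 for *CD69* and -6.41 to -2.92 for *CD4*.

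Of the acinar list, mostly digestive enzymes and their cofactors, 8 of 16 rose and none fell, with a median log2 fold change of 2.83. *PRSS2*, a trypsinogen, rose by log2 5.12 ± 0.648 (SE, edgeR, adjusted p = 0.00404), from 76.5 to 1034 CPM at 80 days to 4221 to 23846 CPM at term. In the other kept cells it had 365 to 2723 CPM at 80 days and 27501 to 52177 CPM at term. *CLPS*, colipase, rose by log2 7.14 ± 1.23 (SE, edgeR, adjusted p = 0.0206). Of the stromal list 1 of 8 fell, *COL3A1*, a fibrillar collagen (log2 -6.20 ± 1.25, SE, edgeR, adjusted p = 0.0443), and the median was -5.41. The summed stromal list had 2085 to 10423 CPM in CD3E+ cells at 80 days and 5.70 to 542 CPM at term. With the control lamb replicate 2 left out, 6 acinar genes rose and 6 of 8 stromal genes fell (medians 2.19 and -9.27), and DESeq2 called 10 and 8. *COL3A1* had 805 to 4056 CPM in the other kept cells at 80 days and 5.52 to 206 CPM at term. Duct (0 of 10, median 0.62), endocrine (0 of 11, 0.28), stellate and mural (0 of 6, -1.61), Schwann (0 of 5, -0.47), erythroid (0 of 3, -3.14) and B cell genes (0 of 4, -1.71) had none that passed. With 3 or more panel genes 10 acinar genes rose and no stromal gene passed, *COL3A1* having an adjusted p of 0.441 and its call holding in 7 of 22 alternatives, while 4 of 11 endocrine genes fell (median -5.04) and 2 of 8 duct genes rose (median 2.46).

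**Figure D5:**
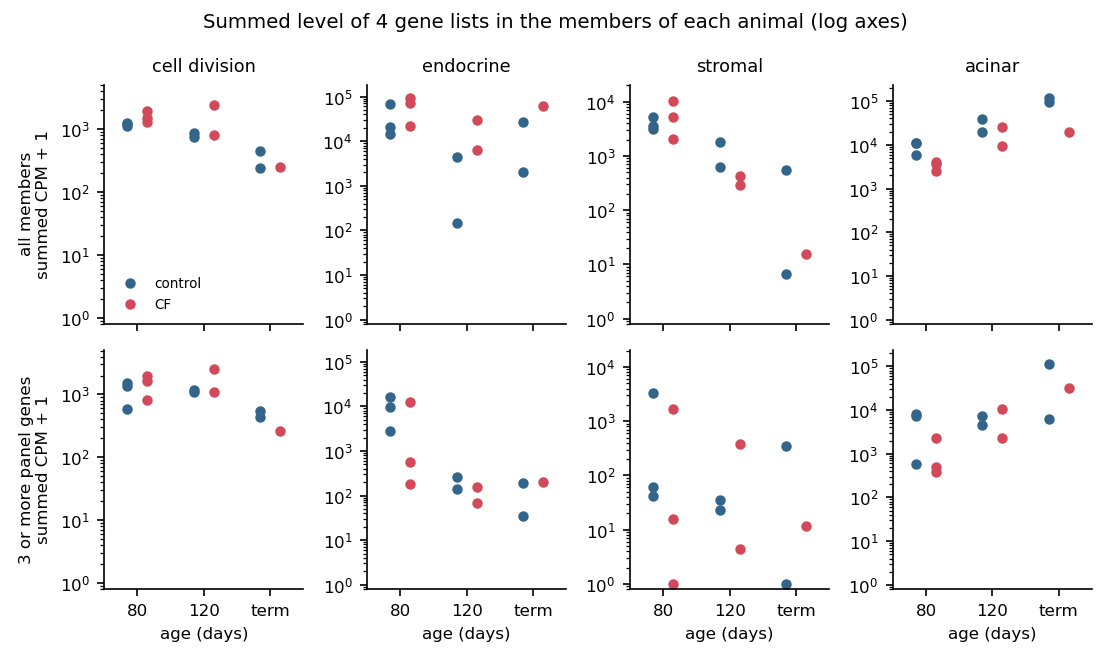
The plots give the summed level (CPM + 1, log axes) of the cell division, endocrine, stromal and acinar lists in the CD3E+ cells of each animal by age, for all CD3E+ cells (top) and for those with 3 or more panel genes (bottom). The acinar sum reached 119850 CPM in the control lamb replicate 2, where it was 110230 CPM with 3 or more panel genes. The endocrine sum reached 93287 CPM in CF replicate 3 at 80 days, where it was 560 CPM with 3 or more panel genes.

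Beside *C12H1orf186*, the rule for named genes picked genes that passed as higher at term. In the mean of the 3 lambs they were at least 2 times higher in CD3E+ cells than in other cells. Among them were *SLC37A4*, a glucose 6-phosphate transporter, *DIO1*, a deiodinase of thyroid hormone, *MPC1*, a mitochondrial pyruvate carrier, *LGALS8*, galectin 8, *CD74* and *DBQ*, a LOC identifier paired with that name. These 6 were highest in the CF lamb among the 3 lambs, so a mean over the lambs can rest on this lamb. *CD74* had 16.3 and 14.3 CPM in the control lambs and 184 CPM in the CF lamb, against a mean of 30.3 in other cells. Its control mean was 17.2 CPM at 80 days and 15.3 at term. *DBQ* had 13.4 and 5.70 CPM in the control lambs and 45.2 in the CF lamb, against 10.2 in other cells. *SLC37A4* rose by log2 2.83 ± 0.587 (SE, edgeR, adjusted p = 0.0468), but 52 of its 80 UMIs at term were in CD3E+ cells of the CF lamb replicate 1, and the call held in 6 of 21 alternatives, with adjusted p of at most 0.265. *CD74*, the invariant chain of class II molecules, rose by log2 1.95 ± 0.317 (SE, edgeR, adjusted p = 0.0178), with 98 of its 170 UMIs at term in 1 cell. In the cells with 3 or more panel genes its log2 fold change was -0.60 (adjusted p = 0.785). *SLC37A4* and *DIO1* could not be tested there, *LGALS8* passed (edgeR, adjusted p = 0.0491), and *MPC1* (log2 0.92, adjusted p = 0.515) and *DBQ* (log2 1.93, adjusted p = 0.202) did not. When the control lamb replicate 2 was left out, *MPC1*, *CD74* and *DBQ* did not pass (edgeR, adjusted p = 0.0533, 0.0942 and 0.284).

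CF and control CD3E+ cells were compared at each age and over the ages. At 80 days, at 120 days and over the ages 0 genes passed (edgeR), with 308, 251 and 585 at an unadjusted p under 0.05 and 11, 1 and 36 called by DESeq2. At term, with 1 CF lamb in the fit, 1 gene passed (0.011% of those tested), a LOC identifier with no symbol. Of its 556 UMIs at term, 548 were in CD3E+ cells of this CF lamb and 523 were in 2 cells. The cells with 3 or more panel genes held 3 of the 556. Its log2 fold change was 9.30, and 8.25 with the control lamb replicate 2 left out. No difference in the CF effect between 80 days and term passed (0 called, 342 at an unadjusted p under 0.05, 2 by DESeq2). No list had a gene that passed. Over the ages the median log2 fold change was -0.55 for the receptor complex, -0.50 for T signalling, -1.63 for the 2 CD8 genes, -0.72 for the naive and recirculating list and 0.72 for the cytotoxic list, against -0.01 for all genes tested. Without the control lamb replicate 2 they were -0.29, -0.03, -0.77, 0.27 and 1.01, against 0.05, so that the naive list changed sign and T signalling lay near 0. The medians of T surface (-0.45) and T lineage (-0.42) also changed sign without this lamb, to 0.49 and 0.22, and T surface had 0.14 with 3 or more panel genes. With 3 or more panel genes the first 5 were -0.27, -0.17, -1.25, -0.39 and 0.48, against -0.08. The panel is made of the receptor complex, T signalling and T surface lists. That choice of cells therefore sets the levels of these lists in part and is no check on them. By age the cytotoxic median was -0.76 at 80 days, 0.83 at 120 days and 1.72 at term. That of the 2 CD8 genes was -2.07, -2.92 and 0.10.

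*CD8B* was lower in CF than in control fetuses without overlap at 80 and 120 days (10.1 and 17.2 CPM in CF against 132 and 37.5 CPM in control fetuses at 120 days). At term the CF lamb (18.1 CPM) lay above both control lambs. In the cells with 3 or more panel genes the sum of *CD8A* and *CD8B* overlapped at 80 days, with 173 to 489 CPM in controls and 78.4 to 373 in CF fetuses. How many of all genes had no overlap between so few animals was not counted. Over the ages *CD8B* did not pass (log2 -1.41 ± 0.477, SE, edgeR, adjusted p = 0.682). *CD8A* (-1.85 ± 0.776, SE, adjusted p = 0.761) and *TCF7* (-1.76 ± 0.639, SE, adjusted p = 0.728) did not pass either, and without the control lamb replicate 2 *CD8A* had a log2 fold change of -0.43. *XCL1* (1.93 ± 0.780, SE, adjusted p = 0.761) was 205 and 48.8 CPM in the CF fetuses and 13.02 and 1.63 CPM in the controls at 120 days, and 199 CPM in the CF lamb against 9.81 and 5.70 CPM in the control lambs, but at 80 days the highest value, 216 CPM, was that of a control. *NKG7*, a granule gene of cytotoxic cells, had a log2 fold change of 1.88 ± 0.722 (SE, adjusted p = 0.749), 3.06 without the control lamb replicate 2 and 0.21 to 3.06 over all alternatives. The shares of CD3E+ cells with *CD69*, *CD4*, CD8 and division genes differed between CF and control by -6.79, -3.14, -5.57 and -5.67 percentage points, none past the test (exact permutation tests, adjusted p of 0.282 to 0.457), and with 1 animal left out at a time the *CD69* difference ran from -12.9 to -2.71. After thinning to 1000 UMIs the division difference was 0.340, the opposite direction. Those of *CD69* and *CD4* were then -3.42 and -0.947 points. That of CD8 was -3.52 points (exact permutation test, p = 0.0167, adjusted p = 0.133), which did not pass. Transcripts of other cells also differed in value between the arms. Over the ages all 16 acinar genes and all 8 stromal genes had a negative log2 fold change, none past the adjusted test. Of these 13 and 7 were at an unadjusted p under 0.05 (edgeR). Of all 9098 genes tested 4680 had a negative log2 fold change, and 299 were lower at an unadjusted p under 0.05. Genes of 1 list are not independent of each other. At 80 days all 8 stromal genes were above 0 (median 0.47) and 15 of 16 acinar genes below 0. The medians of the acinar and stromal lists over the ages were -2.05 and -2.45, and -1.62 and -0.13 without the control lamb replicate 2. DESeq2 called 9 acinar genes lower, 3 of 6 stellate and mural genes higher and 1 of 10 duct genes higher in CF. The stellate and mural (1.48), Schwann (1.07), duct (0.89) and endocrine (0.81) lists had medians above 0, with none past the edgeR test, and that of the stellate and mural list was 3.15 without the same lamb. These medians with 3 or more panel genes were 0.78, 0.10, 0.48 and -1.11, and with 1 panel gene that of the stellate and mural list was -0.09. Their part in the other differences was not tested.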

How the data were processed

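For each library the authors deposited raw counts of UMIs per gene and barcode, made with Cell Ranger 3.1.0 (per the labels) and not normalized. The deposited barcodes had already been called as cells. Here the 79510 of 109501 barcodes with between 200 and 6000 detected genes and less than 25% of UMIs from mitochondrial genes were kept. Doublets were kept, and an alternative left out the 3466 barcodes (4.36%) of highest Scrublet score (scanpy 1.11.5), since the automatic threshold marked 0.690%. Of 322 list genes 292 were in the files, and 666 of 8432 LOC identifiers had a symbol in the RefSeq table or the marker tables of the study. The members and lists were chosen with earlier results of these data known.

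Shares were averaged over the libraries of an animal and compared by exact two-sided permutation tests (scipy 1.17.1), with Benjamini-Hochberg adjustment. UMIs of animals with at least 20 members were summed and tested with edgeR 4.0.16 (R 4.3.3; TMM, filterByExpr, quasi-likelihood, the 6 groups of arm and age in 1 fit), without 87 ribosomal protein genes; the test was tried on simulated counts. DESeq2 1.42.0 was an alternative. Levels (CPM) are UMIs per 1000000 UMIs of the summed cells. The SE of a log2 fold change is its absolute value divided by the square root of the F statistic of the edgeR test. It was not estimated by the model itself and is only rough for genes with no UMI in a group. The share of all genes whose levels do not overlap between so few animals was not counted, so a lack of overlap is a description only. Litter mates were treated as independent, so the spread between animals may be understated. Named were the list genes, and per comparison the 10 genes in each direction with the largest fold change that met these conditions. They passed and reached a mean of 20 CPM in the higher group. They did not overlap between the animals compared in at least 1 arm or age. In the higher group, the mean was at least 2 times higher in members than in other cells, which 1 animal can bring about. The lists were T receptor complex, T signalling, T surface, T lineage, CD4 helper, CD8, gamma delta, regulatory, cytotoxic, naive, activation, cytokines, chemokine receptors, thymocyte, division, interferon, MHC class I, stress, and markers of other blood and pancreatic cells. Some genes that met the rule are not reported here.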

Additional observations from a re-analysis of the deposited data

Results flagged for a closer look

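The share of CD3E+ cells of the control lamb replicate 2 at term was 4.84%, far from the 3 other control lambs, which had 0.233 to 0.801%. The gap to its nearest neighbour was 0.877 of the range of the group, above Dixon's 95% critical value for 4 animals. Chance marks about 1 in 20 groups, and 3 groups of 4 or more animals were examined. This library was also the largest, with 9543 kept cells, and its CD3E+ cells had a median of 3494 UMIs, with 60.4% at 3 or more panel genes. Its file holds 13488 barcodes. The cell number listed in the study is lower than that of the file for this lamb and the same for every other library; the reason was not tested.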

How the results depend on the processing

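Direction and side of the threshold held for the shares and cell states under every alternative but these. The 120 minus 80 day difference in controls was 0.0130 with 2 *CD3E* UMIs and 0.0986 after thinning, and the CF minus control difference of the division share was 0.340 after thinning. Leaving out an animal gave -0.768 to 0.188 for CF minus control at 80 days and -1.04 to 0.523 for 120 minus 80 days in controls. It gave -1.68 to 0.274 for term minus 120 days in controls and -1.76 to -0.946 for term minus 80 days over both arms. In the latter only the test without the control lamb replicate 2 passed, and that lamb was set apart by the same share. *CD74* had log2 -0.63 with 2 *CD3E* UMIs and -0.60 with 3 panel genes.

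Counts of genes moved more. Between 80 days and term (85) they were 196 with DESeq2, 294 without TMM (40 higher, 254 lower, all genes shifted by -0.636 in the median), 578 without a filter, 5 with 2 *CD3E* UMIs, 30 with 1 panel gene, 41 without doublets, 24 without HZ fetuses and 23 to 92 without an animal, the lower counts (23, 24, 30, 32 and 50) without control replicates 3, 4 or 1 or CF replicates 3 or 1 at 80 days. Between 80 and 120 days (8) they were 81, 24, 411, 0, 0, 0 and 0 in that order, 20 with 3 panel genes, 13 with 50 members, 3 without naturally bred CF animals and 0 to 20 without an animal, the higher counts (19 and 20) without control replicate 2 or 3 at term. Between 120 days and term (0) they were 28 with DESeq2, 312 without a filter, 5 with 3 panel genes and 0 to 9 without an animal. For CF minus control at 80 days, 120 days, term and over the ages, DESeq2 gave 11, 1, 14 and 36, no filter 112, 39, 98 and 147, and leaving out an animal 0, 0, 0 to 1 and 0 to 6. There were 3 over the ages without TMM, 1 at 80 days with 3 panel genes, and at term 2 with 2 *CD3E* UMIs and 0 without HZ fetuses. The change of the CF effect had 2 with DESeq2 and 68 without a filter. The cause of these differences was not tested. The rule of 3 panel genes was chosen after seeing the data.

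Donor numbers are shared by different animals and do not pair them: 12 same-numbered pairs had a median correlation of -0.061, 45 others 0.010. With the replicate block 2 genes passed between 80 days and term, 0 between 80 and 120 days and 0 for CF minus control at term. At term, gene fits with 50 members per animal, without naturally bred CF animals or without the CF lamb replicate 1 had no CF lamb and gave no value. Gene counts and calls over the alternatives therefore never leave out this lamb in comparisons with term. The depth of CD3E+ cells limits every statement on genes that were not found.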

Other observations

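All 8 genes of antigen presentation by class I molecules had a higher mean level in CD3E+ cells than in other cells. *B2M*, the light chain of class I, had 3649 ± 1775 CPM (SD, n = 13) in CD3E+ cells against 388 in the other kept cells, and *OLA-I*, a class I heavy chain, 150 ± 94.7 against 10.2. *PSMB9*, a subunit of the immunoproteasome, had 180 ± 142 CPM against 17.5, and all 3 were higher in 13 of 13 animals. None of the 8 genes passed between ages or genotypes, with a median log2 fold change of 0.08 from 80 days to term. *UBD*, a ubiquitin-like protein listed by a LOC identifier, had 661 ± 499 CPM against 6.22, and ranked next after *CD3E* by the mean log2 ratio of levels with 20 CPM added. *PTPRC*, the leukocyte antigen CD45, had 297 ± 176 CPM against 16.7.

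Of the interferon response genes, *IFI16* had 139 ± 122 CPM (SD, n = 13) against 6.46, while *ISG15* (7.41 against 5.41 CPM) and *MX1* (22.6 against 19.5 CPM) were close to the other cells and higher in 7 of 13 animals each. None of the 7 tested genes passed between 80 days and term (median -0.78). Stress and dissociation genes were high throughout the pancreas, *FOS* at 1440 ± 818 CPM against 1862 and *HSPA8* at 1986 ± 1156 against 1737, and none of the 19 tested passed in any comparison (median -0.35 from 80 days to term), while *DDIT3* rose by term (log2 2.15) in the cells with 3 or more panel genes. *FOS* had a log2 fold change of -1.28 ± 0.504 (SE) from 80 days to term (edgeR, adjusted p = 0.254).

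Markers of other blood cells and of endothelium are given with the limit that the rule left out cells with *PECAM1* or a C1Q gene, so that low endothelial and macrophage levels are in part set by the choice of cells. None of the 11 macrophage and monocyte genes, 10 endothelial genes and 9 granulocyte genes had a higher mean in CD3E+ cells than in other cells. Of 10 B cell genes 2 had a higher mean, and their summed list had a median of 57.0 CPM against 28.7. Summed macrophage genes ran from 7.29 to 86.8 CPM and summed endothelial genes from 2.87 to 18.4 CPM over the 13 animals, with medians of 15.7 and 7.26 against 69.1 and 146 in the other cells. From 80 days to term 0 of 2 tested macrophage genes and 0 of 1 granulocyte gene passed, no endothelial gene could be tested, and of 4 dendritic and class II genes *CD74* passed.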
